A study of Drosophila melanogaster with 10 samples.

Results

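The nuclear genes for subunits of respiratory complex I were examined in adult Drosophila melanogaster females, sampled whole. Members were the genes whose symbol begins with ND- and that at least 1 probe set of the array names alone, which gave 31 genes. Of 40 such symbols in a RefSeq gene table, the other 9 were not analysed here, among them the core subunits ND-24, ND-49, ND-30 and ND-23. Where a gene had several probe sets, as ND-MNLL did, the brightest stood for it. RNA came from 5 lines selected for heat resistance and 5 unselected control lines, with 1 array per line. The lines were independent replicates per the series design, and strain, age and treatment before sampling are not given in the labels. A level is log2(intensity + 1) of a probe set, and a difference is the mean of the selected lines minus the mean of the control lines on that scale.

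Complex I (NADH:ubiquinone oxidoreductase) is the large entry point of the mitochondrial respiratory chain. Its N module in the matrix takes electrons from NADH, the Q module passes them along iron-sulfur clusters to ubiquinone, and the membrane arm pumps protons. Core subunits carry the redox chemistry and the proton channels, and the many accessory subunits stabilise the complex and are needed for its assembly. The subunits of the proton-pumping core are encoded by mitochondrial DNA and are not part of this set. In flies the complex is abundant in flight muscle, which runs almost entirely on oxidative metabolism. Genes were placed in modules after their mammalian orthologues.

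The 31 genes comprised 26 subunits and 5 paralogues of subunits, named ND-20L, ND-24L, ND-51L1, ND-51L2 and ND-B14.5AL. A gene was tested when its level exceeded 3 on at least 5 of the 10 arrays, and 30 of 31 passed, ND-51L1 being the exception. Probe sets of other organisms, which measure background, lay between 2.13 and 3.64. Of the subunits, 25 had a mean level above 8, far above that background, and ND-B8 averaged 4.69 in the selected lines and 4.21 in the control lines. In each group line 1 was the highest by how far the 3' signal of fly control transcripts exceeded the 5' signal, a measure of RNA integrity. This excess was 2.76, 1.65, 1.68, 1.43 and 1.74 in selected lines 1 to 5, and 2.27, 1.93, 1.83, 1.72 and 1.87 in control lines 1 to 5. Only selected line 1 was flagged as set far apart from the rest of its group. Results are given with and without line 1 of both groups.

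In all 26 subunits the mean of the selected lines was the higher, which was so for 53.7% of all features and for 37.9% of features with a mean level above 8. Their differences ran from 0.11 for ND-ACP to 0.48 for ND-B8, with a median of 0.28, against a median of 0.0075 over all 10960 features tested. Features with a mean level above 8 had a median of -0.034. The mean level of the 26 subunits, each gene centred over the 10 lines, was 0.14 ± 0.15 in the selected lines and -0.14 ± 0.21 in the control lines (SD, n = 5 each). None of the 30 tested genes passed limma at an adjusted p under 0.05 over all features, and the smallest adjusted p was 0.262, for ND-39. At an unadjusted p under 0.05, 13 of 30 (43.3%) were higher and 0 were lower. With 1 line left out this count was 8 without selected line 4, control line 2 or control line 4, 20 without selected line 1 and 22 without control line 1. With all 10 lines 5.55% of all features were higher and 3.97% lower by the same rule, and 5.86% of those with a mean level above 8 were higher. The share of all features was not counted with 1 line left out. In 0 of 30 genes did every selected line lie above every control line, a pattern held by 0.803% of all features and 0.729% of those with a mean level above 8. The subunits were measured on the same 10 arrays and largely rose and fell together by line. Counts of members are therefore not counts of independent results.

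**Figure D1:**
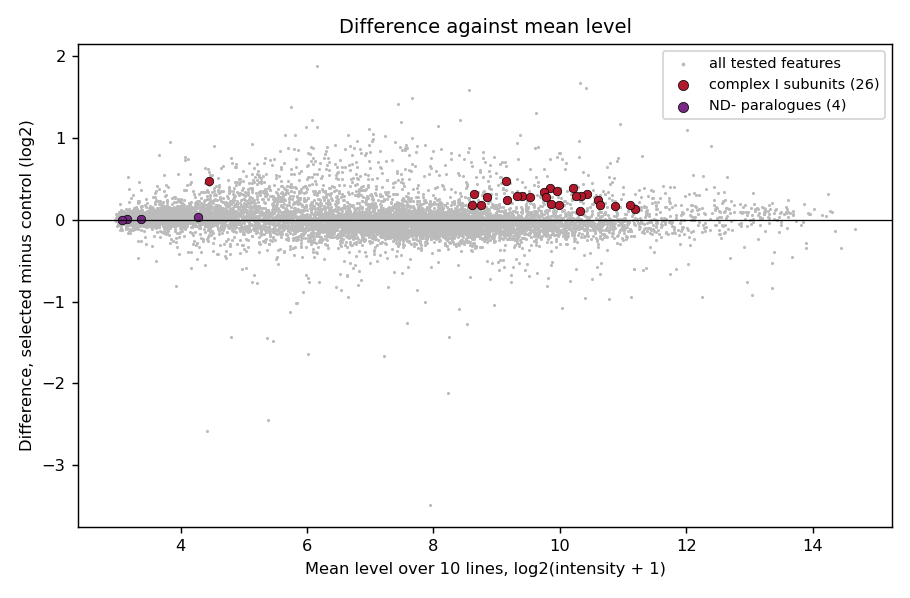
Difference, selected minus control on the log2 scale, against mean level over the 10 lines for 10960 tested features (grey), the 26 complex I subunits (red) and the 4 tested paralogues (purple). The subunits all lie above 0, 25 of them at mean levels above 8, and the paralogues lie at 0 near the dim end.

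In 23 subunits the groups overlapped only through line 1 of either group. Without line 1 of both groups the median difference of the 26 subunits was 0.40, 25 of them were higher at an unadjusted p under 0.05, and in 23 every remaining selected line lay above every remaining control line. The same rules then took 8.28% and 4.44% of all features. Of 3288 features with a mean level above 8 they took 9.31% and 5.81%. No feature passed at an adjusted p under 0.05 without these lines either, and the smallest adjusted p of any feature, 0.0989, was that of 7 subunits among others. Control line 1 was the highest control line in 25 of 26 subunits, by a median of 0.36 over the mean of control lines 2 to 5. Selected line 1 was the lowest selected line in 22 of 26, with a median of -0.25 relative to selected lines 2 to 5. How often this line order holds over all features was not counted. In a subunit with both orders, leaving out line 1 of both groups could only widen the difference. The part of the 3' excess in these departures of line 1 was not tested. With this excess as a covariate, an alternative added after the data were seen, 14 members were higher at an unadjusted p under 0.05. The share of all features was not counted there. The median over the 30 tested genes was 0.25 with the covariate, against 0.26 without it. The mean excess was close in the groups, 1.85 in the selected and 1.92 in the control lines. A covariate so balanced, with 1 slope for both groups, could move a group difference little. The nearly equal medians therefore cannot decide what part RNA integrity has.

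**Figure D2:**
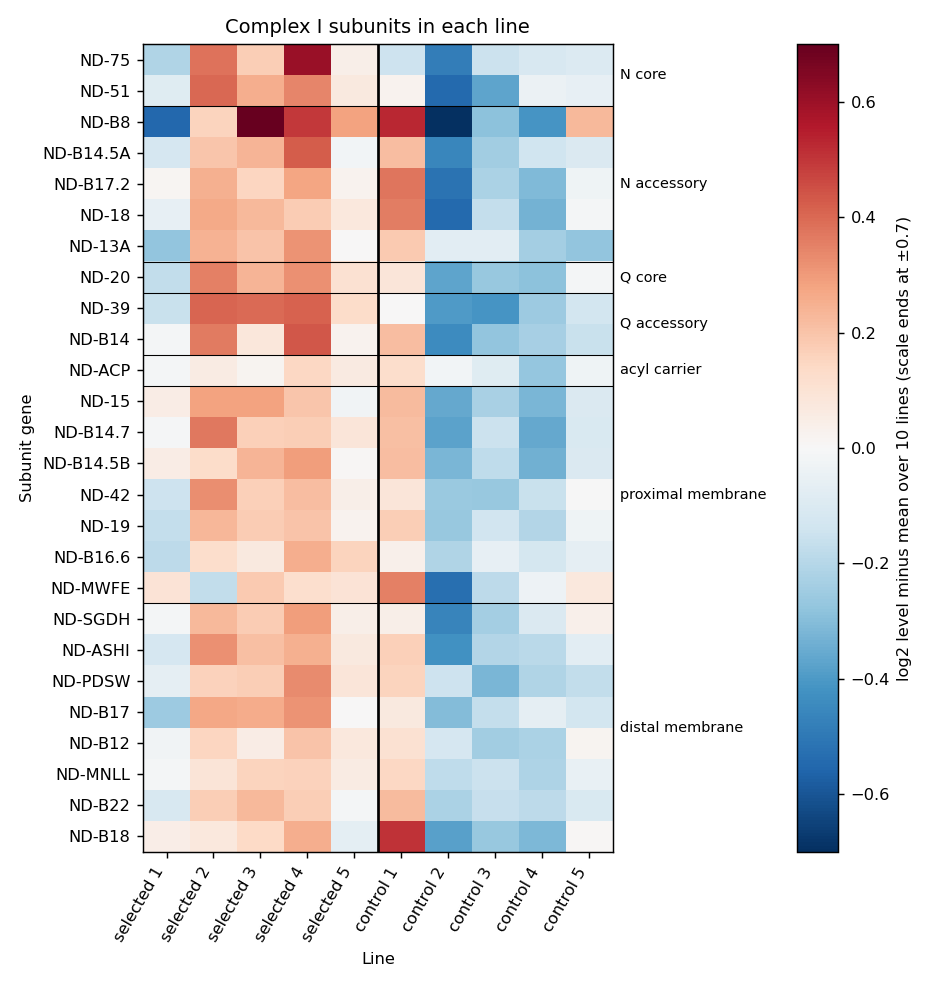
Level of each of the 26 subunits in each line, as log2 level minus the mean over the 10 lines, with selected lines left of control lines and genes grouped by module. Selected lines 2, 3 and 4 are above the gene's mean (red) for nearly all genes, control lines 2, 3 and 4 are below it (blue), and control line 1 is above it for nearly all genes.

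The N module holds the site where NADH gives up its electrons, and 7 of its genes were measured. All 7 had higher means in the selected lines, with a median of 0.29, and 2 of them, both core subunits, were at an unadjusted p under 0.05. ND-51, which binds NADH and the flavin cofactor, had levels of 10.12, 10.61, 10.46, 10.55 and 10.28 in selected lines 1 to 5, against 10.24, 9.67, 9.84, 10.17 and 10.15 in control lines 1 to 5. Selected lines 2 to 5 lay above all control lines, and selected line 1 lay among them. The difference was 0.39 ± 0.13 (SE, adjusted p = 0.356 from limma). ND-75, the largest subunit, carries several of the iron-sulfur clusters. It had levels of 9.64, 10.23, 10.02, 10.45 and 9.89 in selected lines 1 to 5, against 9.71, 9.37, 9.70, 9.74 and 9.76 in control lines 1 to 5. Here 4 control lines lay close together and line 2 lay below them, while selected lines 2 to 5 were above every control line. The difference was 0.39 ± 0.14 (SE, adjusted p = 0.391 from limma). ND-75 was also the subunit in which control line 1 departed least from the other controls, by 0.068.

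The 5 accessory genes of the N module had differences from 0.19 for ND-13A to 0.48 for ND-B8, and 0 of 5 were at an unadjusted p under 0.05. In ND-18, whose human orthologue NDUFS4 is a cause of Leigh syndrome, 0 selected lines exceeded control line 1. It stood at 8.79, 9.11, 9.07, 9.02 and 8.92 in selected lines 1 to 5, against 9.20, 8.30, 8.68, 8.51 and 8.83 in control lines 1 to 5. ND-B17.2 had the same layout, at 9.67 ± 0.12 in the selected lines and 9.38 ± 0.34 in the control lines (SD, n = 5 each). ND-B14.5A differed by 0.29 ± 0.13 (SE). The dim ND-B8 had the largest difference and the largest error of the subunits (0.48 ± 0.32, SE), and its control line 2, at 3.19, lay within the range of background probe sets. Without ND-B8 the median of the other 25 subunits was 0.28.

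The Q module leads electrons to ubiquinone, and its 3 measured genes had the highest median of the modules, 0.35, with 3 of 3 at an unadjusted p under 0.05. ND-39, an accessory subunit at the joint of the matrix and membrane arms, had the smallest p of all members. Its levels were 8.99, 9.55, 9.54, 9.56 and 9.27 in selected lines 1 to 5, against 9.15, 8.75, 8.74, 8.89 and 9.02 in control lines 1 to 5. Selected lines 2 to 5 were above all control lines, and selected line 1 was below control lines 1 and 5. The difference was 0.47 ± 0.13 (SE), a 1.39-fold higher level. ND-20, a core subunit that ligates the last iron-sulfur cluster before ubiquinone, stood at 9.58, 10.10, 9.98, 10.07 and 9.86 in selected lines 1 to 5, against 9.84, 9.38, 9.49, 9.46 and 9.74 in control lines 1 to 5. The difference was 0.34 ± 0.12 (SE, adjusted p = 0.385 from limma), and selected lines 2 to 5 again exceeded every control line. ND-B14, an accessory subunit of the LYR protein family, differed by 0.35 ± 0.13 (SE, adjusted p = 0.404 from limma), and its 2 highest lines were selected lines 4 and 2. ND-ACP, the mitochondrial acyl carrier protein, also serves fatty acid synthesis outside complex I. It had the smallest difference of the 26, at 10.37 ± 0.06 in the selected lines and 10.26 ± 0.14 in the control lines (SD, n = 5 each).

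**Figure D3:**
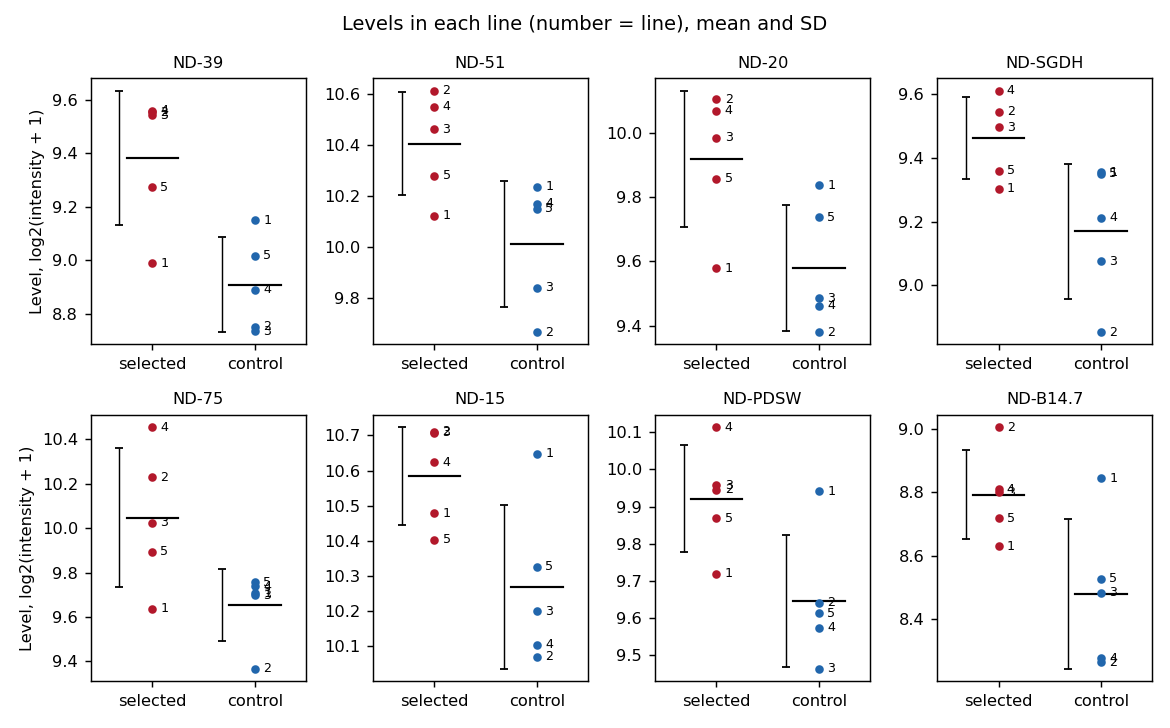
Levels, log2(intensity + 1), of the 8 members with the smallest unadjusted p in each selected line (red) and control line (blue), with the line number beside each point, the group mean as a bar and the SD beside it. In each panel line 1 is the lowest or next to the lowest selected line, and in 7 of 8 panels control line 1 is the highest control line.

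The 7 measured accessory genes of the proximal membrane arm, which adjoins the Q module, had a median difference of 0.24, and 4 were at an unadjusted p under 0.05. ND-15, with the smallest p in this arm, had levels of 10.48, 10.71, 10.71, 10.62 and 10.40 in selected lines 1 to 5, against 10.65, 10.07, 10.20, 10.10 and 10.33 in control lines 1 to 5. Control line 1 lay above selected lines 1, 4 and 5, and every selected line lay above control lines 2 to 5. The difference was 0.31 ± 0.11 (SE, adjusted p = 0.391 from limma). ND-B14.7 was at 8.63, 9.01, 8.80, 8.81 and 8.72 in selected lines 1 to 5, against 8.84, 8.26, 8.48, 8.28 and 8.53 in control lines 1 to 5. Its difference was 0.31 ± 0.11 (SE, adjusted p = 0.399 from limma), and only selected line 2 exceeded control line 1. ND-B14.5B differed by 0.29 ± 0.11 and ND-42, a relative of nucleoside kinases, by 0.24 ± 0.10 (SE). ND-19 differed by 0.19 ± 0.10 and ND-B16.6, whose mammalian orthologue is also known as GRIM-19, by 0.17 ± 0.087 (SE). ND-MWFE, a small single-span membrane subunit, had the largest p of the 26. Its levels were 11.29, 11.02, 11.38, 11.31 and 11.29 in selected lines 1 to 5, against 11.54, 10.66, 11.01, 11.16 and 11.26 in control lines 1 to 5. The difference of 0.13 ± 0.14 (SE) was within the spread between lines, and it was the only subunit in which selected line 1 was above the mean of the other selected lines.

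The 8 measured genes of the distal membrane arm had a median difference of 0.21, and 4 were at an unadjusted p under 0.05. ND-SGDH had levels of 9.30, 9.54, 9.50, 9.61 and 9.36 in selected lines 1 to 5, against 9.35, 8.85, 9.08, 9.21 and 9.35 in control lines 1 to 5. The difference was 0.29 ± 0.11 (SE, adjusted p = 0.391 from limma), and selected line 5 lay just above control lines 1 and 5. ND-PDSW stood at 9.72, 9.95, 9.96, 10.11 and 9.87 in selected lines 1 to 5, against 9.94, 9.64, 9.46, 9.57 and 9.61 in control lines 1 to 5. All selected lines lay above control lines 2 to 5, and the difference was 0.28 ± 0.10 (SE, adjusted p = 0.391 from limma). ND-ASHI differed by 0.29 ± 0.12 and ND-MNLL by 0.18 ± 0.079 (SE). ND-MNLL had another probe set, 0.28 to 0.55 dimmer on every array, which gave the same difference of 0.18. The remaining genes ND-B17, ND-B12, ND-B22 and ND-B18 differed by 0.24 ± 0.12, 0.18 ± 0.083, 0.18 ± 0.10 and 0.18 ± 0.15 (SE). In ND-B18 control line 1 stood at 9.12 and the other control lines at 8.62 or below, and 0 selected lines reached it.

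**Figure D4:**
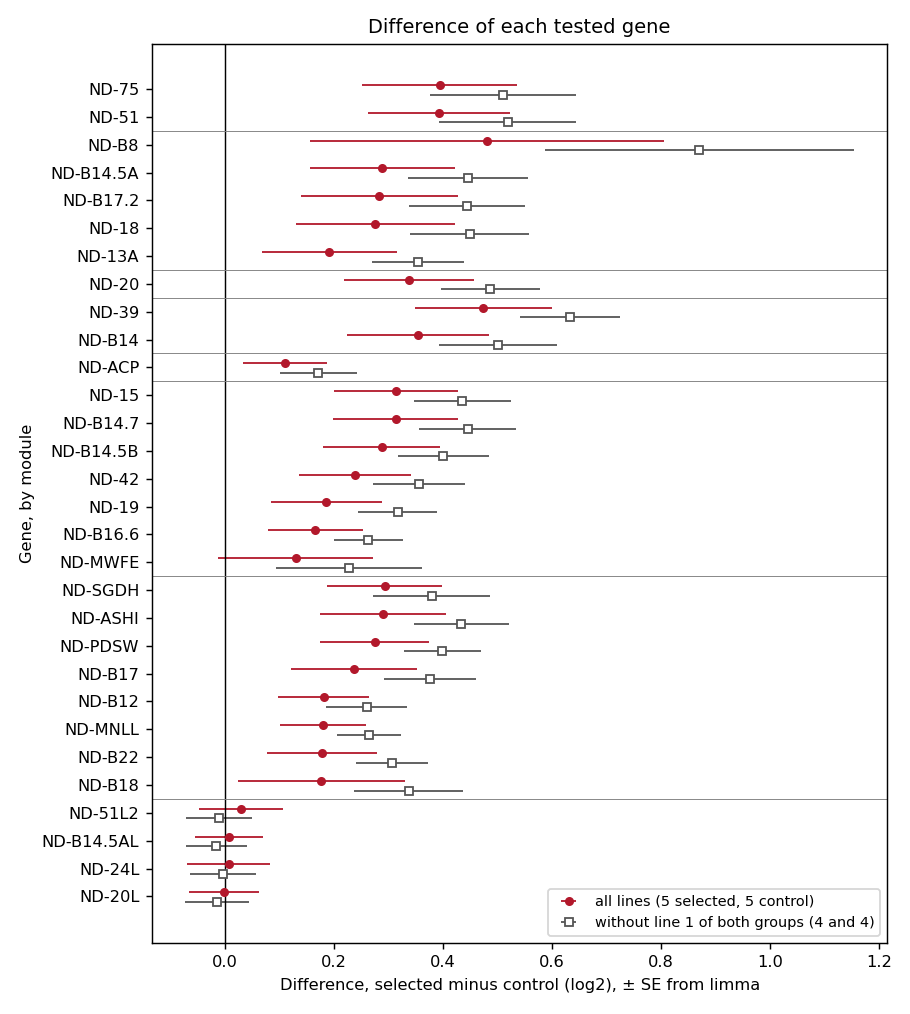
Difference of each tested gene, selected minus control on the log2 scale with the SE from limma, over all lines (filled circles) and without line 1 of both groups (open squares), ordered by module from the N module at the top to the paralogues at the bottom. All 26 subunits are above 0 in both fits and the 4 paralogues are at 0.

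By arm of the complex, the 10 genes of the matrix arm (N and Q modules) had a median difference of 0.35 and the 15 genes of the membrane arm one of 0.24. Without line 1 of both groups these medians were 0.49 and 0.36. The gap between the arms was not tested. The spread between lines was also uneven: the SD was larger among control lines than among selected lines for 19 of 26 subunits, with medians of 0.15 in the selected lines and 0.20 in the control lines. Without line 1 of both groups the medians were 0.12 and 0.13. By chromosome arm in RefSeq, 8 of the 26 subunits lie on X, 9 on 2L, 5 on 2R, 3 on 3L and 1 on 3R. The median difference was 0.28 on X, 0.28 on 2L, 0.19 on 2R and 0.29 on 3L.

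Line by line, the centred mean of the 26 subunits was -0.097, 0.22, 0.21, 0.28 and 0.055 in selected lines 1 to 5, and 0.18, -0.37, -0.21, -0.22 and -0.056 in control lines 1 to 5. Selected lines 2, 3 and 4 lay above all control lines. Control line 2 was the lowest of all 10 lines in 18 of 26 subunits, and selected line 4 was the highest of all in 13. Selected lines 3 and 4 exceeded control lines 2 to 5 in 26 of 26 subunits, line 5 in 25 and line 2 in 24, against 10 for selected line 1. The shares of all features with these line orders were not counted.

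The 5 paralogues gave signals at or near background. The 4 tested differed by -0.0013 (ND-20L) to 0.030 (ND-51L2), with SEs of 0.062 to 0.076. ND-20L had levels of 2.99, 3.04, 3.05, 3.16 and 3.08 in selected lines 1 to 5, against 2.94, 3.16, 3.14, 3.02 and 3.06 in control lines 1 to 5. ND-24L stood at 3.01, 3.13, 3.15, 3.28 and 3.18 in selected lines 1 to 5, against 2.96, 3.26, 3.23, 3.11 and 3.16 in control lines 1 to 5. The groups overlapped throughout, and the mean levels of ND-20L, ND-24L and ND-B14.5AL were no higher than the brightest background probe set. ND-51L1, not tested, averaged 2.46 in the selected lines and 2.44 in the control lines. ND-51L2 averaged 4.30 in the selected lines and 4.27 in the control lines. The centred mean of the 4 tested paralogues and the mean of the 23 background probe sets put all 10 arrays in the same order, from control line 1 as the lowest to selected line 4 as the highest.

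Other genes of the pathway were described from lists, with counts at an unadjusted p under 0.05 from the same fit. By this rule 5.55% of all features were higher and 3.97% lower. NP15.6, a complex I subunit of the distal membrane arm whose symbol is outside the rule, differed by 0.33 ± 0.13 (SE) and averaged 9.49 ± 0.09 in the selected lines and 9.16 ± 0.32 in the control lines (SD, n = 5 each). Complexes II, III and IV and the ATP synthase had a median of 0.25 over 38 genes, with 16 higher and 0 lower at that p. Of the 38, 34 had higher and 4 lower means, and 6 were no brighter than the brightest background probe set. Unlike the 26 subunits, this list also holds paralogues such as Cyt-c1L and the assembly factor Sdhaf3, the lowest at -0.22. The centred mean of the 38 genes was -0.067, 0.17, 0.13, 0.25 and 0.035 in selected lines 1 to 5. It was 0.081, -0.23, -0.15, -0.17 and -0.058 in control lines 1 to 5, so that selected lines 2, 3 and 4 were again the highest. Assembly factors of complex I help build the complex but are not part of it, and of 17 list entries for them 5 were tested. Of these 5, 0 reached that p, 3 had higher and 2 lower means, and the median was 0.078. The lowest was ECSIT, at -0.046. CIA30 differed by 0.089 ± 0.080, sicily by 0.086 ± 0.10 and Nubpl by 0.078 ± 0.089 (SE).

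Genes for ubiquinone synthesis and other entries of electrons to ubiquinone had a median of -0.0030 over 11 genes, with 0 at an unadjusted p under 0.05. Among 10 regulators of mitochondrial gene expression and DNA maintenance the median was -0.021, with 0 at that p. The transcription factor gene ewg differed by 0.17 ± 0.088 and the mitochondrial DNA polymerase gene PolG1 by -0.15 ± 0.089 (SE). Of 7 genes for iron-sulfur cluster assembly, whose product complex I needs, 1 was higher at that p, as were 5.55% of all features. The median of the 7 was 0.062. The gene higher at that p was IscU, the scaffold on which clusters are built. It averaged 10.79 ± 0.14 in the selected lines and 10.49 ± 0.24 in the control lines (SD, n = 5 each). The frataxin gene fh differed by -0.18 ± 0.10 (SE).

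In RNA of whole flies, fewer cells of a type and less RNA per cell cannot be told apart, and markers of muscle and ovary moved with the groups. All 19 measured muscle genes had higher means in the selected lines, with a median of 0.82 and 15 at an unadjusted p under 0.05. Their centred mean was -0.31, 0.77, 0.79, 0.80 and 0.12 in selected lines 1 to 5, and -0.022, -1.21, -0.58, -0.39 and 0.050 in control lines 1 to 5. Selected lines 2, 3 and 4 were the highest and control line 2 the lowest, as for complex I, and selected line 1 was below control line 1 in both. All 17 yolk and eggshell genes had lower means, with a median of -0.54 and 10 lower at that p. Their centred mean was -0.072, -0.012, -1.06, -0.69 and 0.19 in selected lines 1 to 5, and 0.59, 0.42, 0.36, 0.18 and 0.093 in control lines 1 to 5. Selected line 2 was among the highest lines for complex I and near the middle for yolk and eggshell genes. The presence of yolk and eggshell transcripts fits the label of adult females. Of 13 entries in a testis list only 3 were tested, and these had mean levels of at most 3.86. The part of muscle or ovary content in the complex I differences was not tested.

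**Figure D5:**
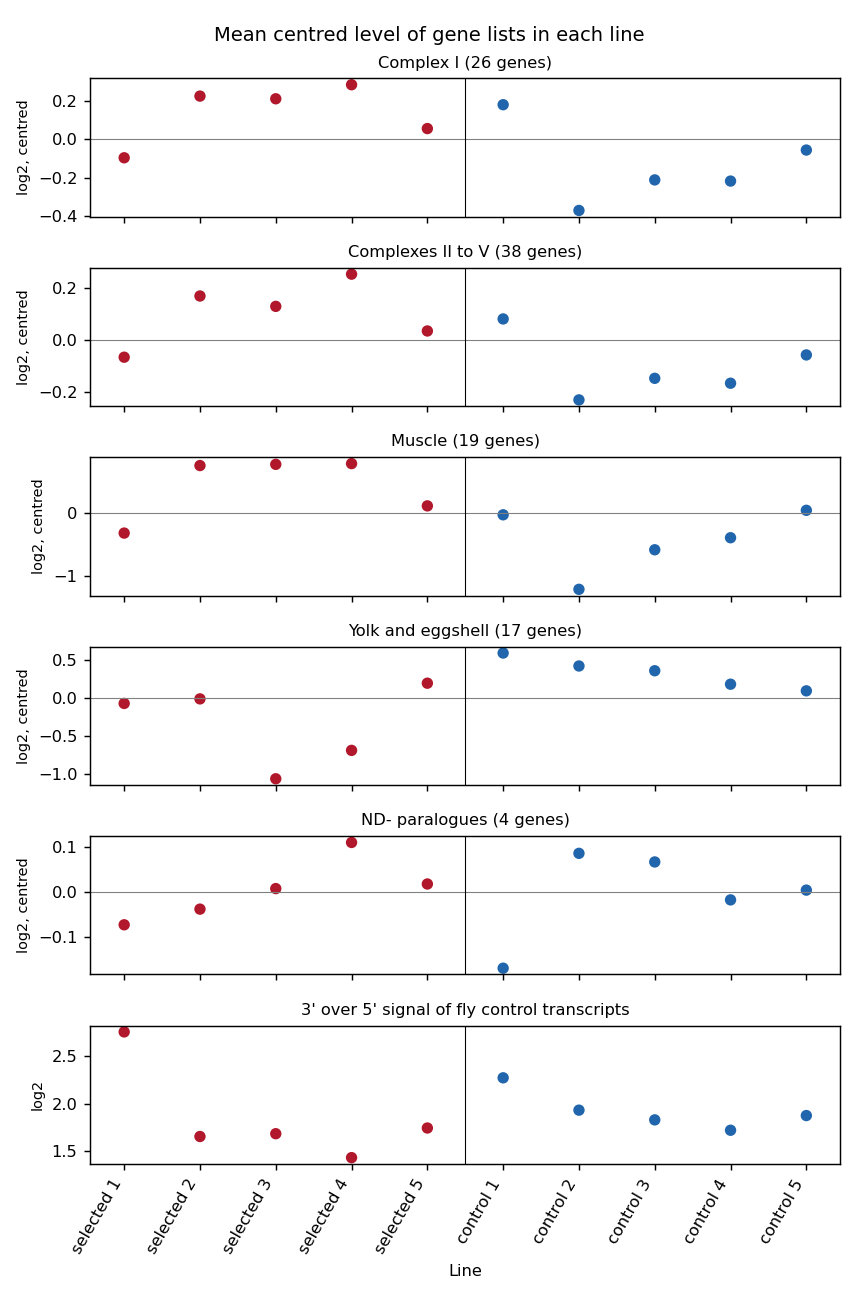
Centred mean level (log2) of the 26 complex I subunits, 38 genes of the other respiratory complexes, 19 muscle genes, 17 yolk and eggshell genes and the 4 tested paralogues in each line, and the 3' over 5' signal of fly control transcripts (log2), with selected lines left (red) and control lines right (blue). Selected lines 2, 3 and 4 are the highest and control line 2 the lowest in the panels of the respiratory complexes and muscle.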

How the data were processed

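Each array gave 1 column of probe set intensities on a linear scale, deposited after GCRMA (background correction and normalization across arrays) by the authors, per the submitters' processing notes, which give no version or further step. GCRMA draws dim probe sets toward a floor. The table held 14010 probe sets, of which 12443 name 1 gene, 327 several and the rest none in the platform annotation, and 44 control probe sets were left out of tests. Values were analysed as log2(intensity + 1), which understates differences of dim genes. Features above 3 on at least 5 arrays were kept, 1 per gene by highest mean (10960). The test was limma 3.58.1, run in R 4.3.3 (lmFit and eBayes, two-sided, Benjamini-Hochberg over all features). In simulated data with 10960 features it recovered 73.1%, 91.0% and 98.5% of genes changed 1.5-fold, 2-fold and 4-fold, with 10 false calls. There 200 of the brighter features were changed, and noise was independent between features, without the deviations that features of a line share. The subunits differed 1.08-fold (ND-ACP) to 1.40-fold (ND-B8), less than any size simulated. The simulation therefore checks the code and does not give the power for these genes. Precision is limited by the number of arrays (median SE 0.095). P-values measure the spread between arrays, and with 1 array per line this mixes differences between lines with those of array and RNA integrity.

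Members and lists were chosen with earlier results of these data known. Values in every line are given for the measured core subunits, the 8 members with the smallest unadjusted p and the 2 with the lowest difference, and for ND-18 and ND-MWFE, which were chosen after their values were seen. Gene IDs without a name and symbols resolving to another gene were dropped from the lists, and list genes that were not tested were left out of the counts. Alternatives were another pseudocount, filters, scalings, variance model, probe set choice, array weights, a replicate block, a 3' excess covariate and left-out lines.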

Additional observations from a re-analysis of the deposited data

Results flagged for a closer look

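In 80 groups of 5 lines examined, 6 had a line set far apart from the other 4, where chance alone gives about 5% of groups. ND-75 was low in control line 2, at 9.37. ND-B22 was high in control line 1, at 11.33. ND-MWFE was low in selected line 2, at 11.02. The dim paralogue ND-B14.5AL was high in selected line 4, at 3.50, and low in control line 1, at 3.25, both within the range of background probe sets. The 3' excess of fly control transcripts was high in selected line 1, at 2.76.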

How the results depend on the processing

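The median difference of the tested members was 0.26 and lay between 0.19 and 0.38 under 22 alternatives, and none of them brought a member past an adjusted p of 0.05. The 13 members higher at an unadjusted p under 0.05 became 25 without line 1 of both groups and 24 with array weights, which gave line 1 of the selected and control groups weights of 0.36 and 0.24. With 1 line left out the count ran from 8 to 22. It was 20 without selected line 1 and 22 without control line 1, and 8 without selected line 4, control line 2 or control line 4. By the same rule 5.55% of all features were higher with all lines and 8.28% without line 1 of both groups. This share was not counted under the other alternatives. Over all features, 0 calls at an adjusted p under 0.05 from limma became 7 with array weights and 2 with the replicate block. They became 1 without selected line 2 and 3 without control line 5. With 1 line left out these calls ran from 0 to 3. Deviations from the group means correlated across features between same-numbered lines at an r of 0.55, 0.21, 0.20, 0.35 and 0.027 for lines 1 to 5. Line 5 showed no such relation, and differently numbered lines reached 0.43 (selected line 5 with control line 3). Every selected and control pair within lines 1 and 2, or within lines 3 to 5, had a positive r (0.027 to 0.55). Every pair across these sets had a negative r (-0.46 to -0.058). Deviations from a group's mean cancel over its lines, so positive r within sets tends to bring negative r across them. The sets were read from these same correlations. What the lines of a set share is not given in the labels and was not tested. The lines were not paired by number, and the main fit has no term for these sets. With the replicate block 10 members were at an unadjusted p under 0.05. The median with 1 line left out ran from 0.19 to 0.33. For the 8 subunits with the smallest unadjusted p in the main fit, all 176 refits kept the direction with no adjusted call. These genes were picked by p and the refits reuse the same arrays, so this count is not independent support. The paralogue ND-24L, at background, turned to -0.011 with quantile normalization, -0.015 with median centring, -0.0030 without line 1 of both groups, -0.00074 with array weights and -0.0064 with the 3' excess as covariate. With 1 line left out ND-24L ran from -0.038 to 0.042 and ND-20L from -0.032 to 0.022. The cause of these changes was not tested. Dim members near background, ND-B8 included, limit what can be said of them.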
